A study of Mus musculus with 3 samples.

Results

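Cxcl13 and Cxcr5, the chemokine CXCL13 and the receptor CXCR5 through which it acts, are described here across the cells of mouse glioblastomas at 3 stages of growth. They are 2 of the 50262 genes in the count table, taken by name. The pair was chosen by a measured value, the higher level of Cxcl13 in microglia of the later tumors, so the stage differences of Cxcl13 are given as a description with no test. CXCL13 guides B cells and follicular helper T cells into the follicles of lymphoid tissue, where stromal cells are its usual source. Macrophages and microglia can also make it when they are activated, and its gene is induced in the inflamed brain. CXCR5 is carried by mature B cells and by follicular helper T cells, and lymphotoxin signals maintain the follicles in which ligand and receptor meet.

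The tumors arose in mice with a conditional wild-type human EGFR transgene, a Cdkn2a-/- genotype and a conditional luciferase reporter. They were started by stereotactic injection of a lentivirus that carries Cre, so activation of the transgene is limited to transduced cells and their progeny, while every cell of the host lacks Cdkn2a. The mice were adult males and females of a mixed genetic background. Viable cells were split into CD45+ and CD45- fractions (leukocytes carry CD45) and captured on the inDrop platform, which counts mRNA molecules by unique molecular identifiers (UMIs). Stages are early, medium and large, the last called late here, with 1 tumor sample each in the library annotation, and the early cells were pooled from more than 1 animal. Each stage and sort has 4 technical libraries spread over 3 sequencing runs. Normal brain was not analysed here.

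After filtering, 11185 CD45+ and 6596 CD45- cells remained, with 5381839 to 10808099 UMIs per stage and sort and median depths of 1964 to 3078.5 UMIs per cell. Libraries were not balanced, and the late CD45+ libraries of run 1 held 17 and 91 cells. Of 15845 kept barcodes, 1660 (10.5%) occurred in more than 1 library. Classes named from marker genes end in "-like". Levels are given in CPM, the UMIs of a gene per 1000000 UMIs of the cells described. Microglia markers summed to 13977 to 19948 CPM in microglia-like cells and to 5022 to 6663 in macrophage or monocyte-like cells, across the stages. The macrophage or monocyte-like class was made of clusters 2 and 22, and cluster 2 met 4 of its 10 markers. Its Ccr2, the receptor of blood monocytes, reached 23.3 to 43.6 CPM against 22.1 to 30.1 in microglia-like cells. Ccr2 thus did not separate the classes, whereas Lyz2 (3743 to 5154 against 204 to 674) did. Of the 10 macrophage markers, 9, 8 and 8 were higher in this class in early, medium and late cells. Their sum there, mostly Lyz2, was 4246.5, 4822 and 6976 CPM. In early and medium cells this was below the sum of microglia markers in the same class (6663 and 5022).

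Which cells held the ligand and which the receptor was asked first between the sorts. Cxcl13 (ENSMUSG00000023078, chromosome 5, 95956951 to 95961068, plus strand, GRCm38, 4 exons) was read at 233 CPM in early, 1884 in medium and 1164 in late CD45+ cells. In the CD45- cells of the same tumors it was read at 27.9, 130 and 4.91. Each CD45+ value lay above every CD45- value, and the means were 1094 ± 828 (SD, n = 3 tumor samples) and 54.2 ± 66.5. The log2 difference of CD45+ over CD45- was 5.05 (SE 1.00, adjusted p = 0.00628, edgeR quasi-likelihood test, two-sided, blocked by tumor, Benjamini-Hochberg adjustment over 18433 genes). Of all genes tested, 20.4% passed in this direction and 25.7% in the other. Cxcl13 was picked for its level in later microglia, and those cells are part of the CD45+ sums. The p-value of Cxcl13 is therefore not independent of that choice. When every gene with at least 1 count was tested, the log2 difference was 5.02 but the adjusted p rose to 0.153, so this call depends on the filter for low counts.

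Even the Cxcl13 of the CD45- sort came from myeloid cells. Of its 1130 UMIs there, 1105 (97.8%, 95% exact binomial interval 96.8 to 98.6) lay in 390 microglia-like or macrophage or monocyte-like cells that had entered that sort. The other 6206 CD45- cells held 25 UMIs together. Oligodendrocyte-like CD45- cells, which should lack the gene, had a UMI in 0.183% of 2731 cells at 2.16 CPM. Of their 17 UMIs, 13 lay in 1 late cell that also held 11 UMIs of the myeloid complement genes C1qa, C1qb and C1qc. Astrocyte-like and choroid plexus epithelium-like CD45- cells had 0 UMIs in 171 and 380 cells, and a limit of 3 counts allows up to 1.75% and 0.789% of them to hold a UMI, which does not limit the share that expresses the gene. Median depths were 2471 UMIs in the oligodendrocyte-like CD45- and 1905 in the microglia-like CD45+ cells.

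By library, Cxcl13 in the early CD45+ sort was 253 CPM in run 1, 251 in run 2, and 265 and 181 in the libraries of run 3. In the medium sort it was 1707 in run 1, 2041 and 1808 in run 2, and 1811 in run 3. In the late sort it was 2985 and 2596 in the small libraries of run 1, 1430 in run 2 and 738 in run 3. Every medium and every late library therefore lay above every early library. The medium libraries were close together, whereas the late libraries differed by run, with the libraries of fewest cells the highest. The CD45- libraries had 19.5, 8.26, 32.6 and 71.4 CPM for early, 143, 93.2, 188 and 119 for medium and 0 to 9.83 for late. Medium was highest there, as in the pooled CD45+ values, although the late CD45+ libraries of run 1 exceeded every medium one. No CD45- library reached the CD45+ range of its stage.

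**Figure D1:**
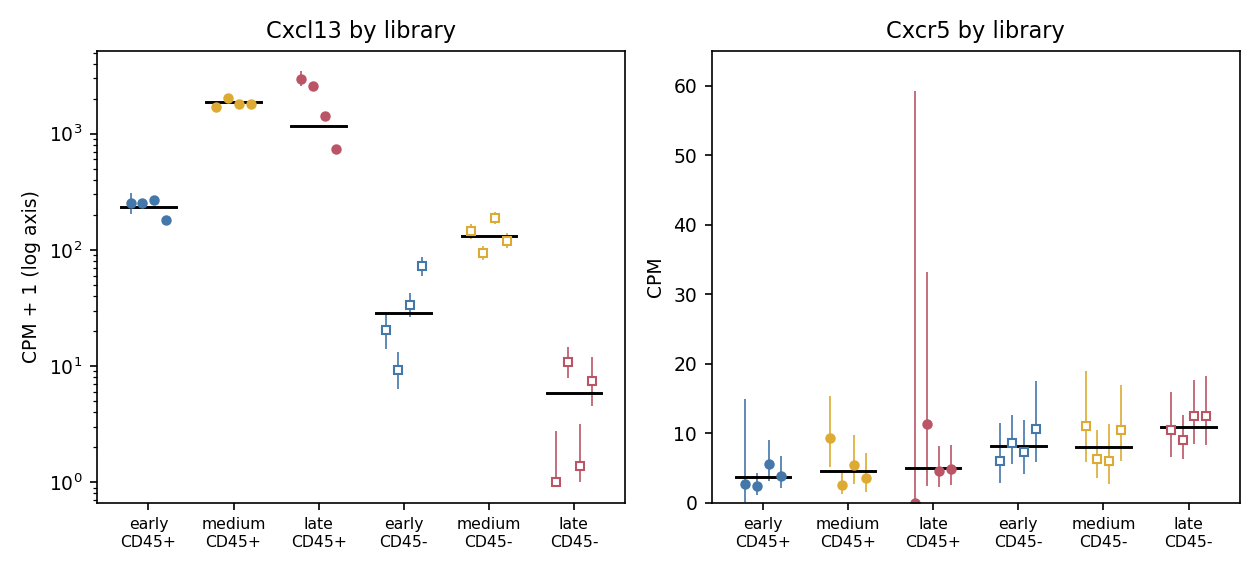
Cxcl13 (left, log axis, CPM + 1) and Cxcr5 (right, CPM) in each library, by stage and sort. Points are libraries with 95% Poisson intervals for counting error, filled for CD45+ and open for CD45-, and black bars are the pooled level of the sort and stage. Cxcl13 lies at 181 to 265 in the early and at 738 to 2985 in the later CD45+ libraries, while Cxcr5 stays at or below 12.5 in every library.

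Cxcr5 showed the opposite order. Cxcr5 (ENSMUSG00000047880, chromosome 9, 44511787 to 44561877, minus strand, GRCm38) was read, from early to late, at 3.70, 4.52 and 5.02 CPM in CD45+ cells and at 8.15, 8.08 and 10.9 in CD45- cells. Single libraries ran from 0 to 11.4 in the CD45+ and from 6.002 to 12.5 in the CD45- sort and overlapped. The pooled values of the sorts did not overlap, and their means were 4.41 ± 0.665 and 9.03 ± 1.59 (SD, n = 3 each). The log2 difference was -0.66 (SE 0.29) and did not pass the test (adjusted p = 0.103, edgeR). Without TMM scaling factors it was -1.03 and passed (adjusted p = 0.0224), and over all alternatives its adjusted p ranged from 0.0224 to 0.315. The counts behind it were small, with 111 Cxcr5 UMIs in all CD45+ cells and 234 in all CD45- cells.

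The position of Cxcr5 bears on how its UMIs are read. Its last 110 exon bases, on chromosome 9 from 44511787 to 44511896, are shared with the end of Bcl9l, a Wnt coactivator gene on the plus strand, and the strand used in counting is not given in the sources used here. Both genes end there, and the capture method primes at the end of the mRNA. Bcl9l was also lower in the CD45+ sort (9.99, 7.71 and 9.10 CPM against 26.8, 19.5 and 21.6, log2 difference -0.97, adjusted p = 0.0106, edgeR). In the CD45- sort, 421 of 6596 cells held a Bcl9l UMI. These cells had 9.96% of all UMIs but 167 of the 234 Cxcr5 UMIs (71.4%, 65.1 to 77.1).

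The CD45+ sort gave the same picture. There, cells with a Bcl9l UMI had 1.90% of all UMIs and 74 of the 111 Cxcr5 UMIs (66.7%, 57.1 to 75.3). Of the 219 CD45- cells with Cxcr5, 155 also held Bcl9l, and in 118 of them both genes had the same count. Outside cells with Bcl9l, Cxcr5 was at 2.95 CPM (2.28 to 3.74) in the CD45- and at 1.46 (1.02 to 2.01) in the CD45+ sort. Reads of Cxcr5 and of Bcl9l at their shared end cannot be told apart in these counts. Cxcl13 shares no exon base with another annotated gene.

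Across classes of both sorts, Cxcr5 was highest in mural cell-like cells (23.0 CPM from 6 UMIs, 8.43 to 49.98) and B cell or plasma cell-like cells (18.6 from 17 UMIs, 10.8 to 29.7). T cell-like cells followed at 11.5 (7.18 to 17.4) and oligodendrocyte-like cells at 11.4 (9.15 to 13.96). Glioma or oligodendrocyte progenitor-like cells had 9.98 (7.51 to 12.98), microglia-like cells 3.37 (2.47 to 4.50) and macrophage or monocyte-like cells 0.626 (0.129 to 1.83). The intervals of the first 5 classes overlap, so their order is not resolved at this depth. B cell or plasma cell-like cells held 15.3% (9.18 to 23.4) of the CD45+ Cxcr5 UMIs with 2.69% of the cells.

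The B cell or plasma cell-like cluster was led by antibody genes (Igha, Igkc, Jchain) and met 5 markers of plasma cells and 6 of B cells. Outside cells with a Bcl9l UMI it had 6 Cxcr5 UMIs, or 6.75 CPM (2.48 to 14.7), an interval that overlaps that of the CD45- sort after the same exclusion. T cell-like cells with Icos, Pdcd1 or Cd4 had 14.5 CPM of Cxcr5 (7.91 to 24.3) and those without had 8.402 (3.63 to 16.6), with overlapping intervals.

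**Figure D2:**
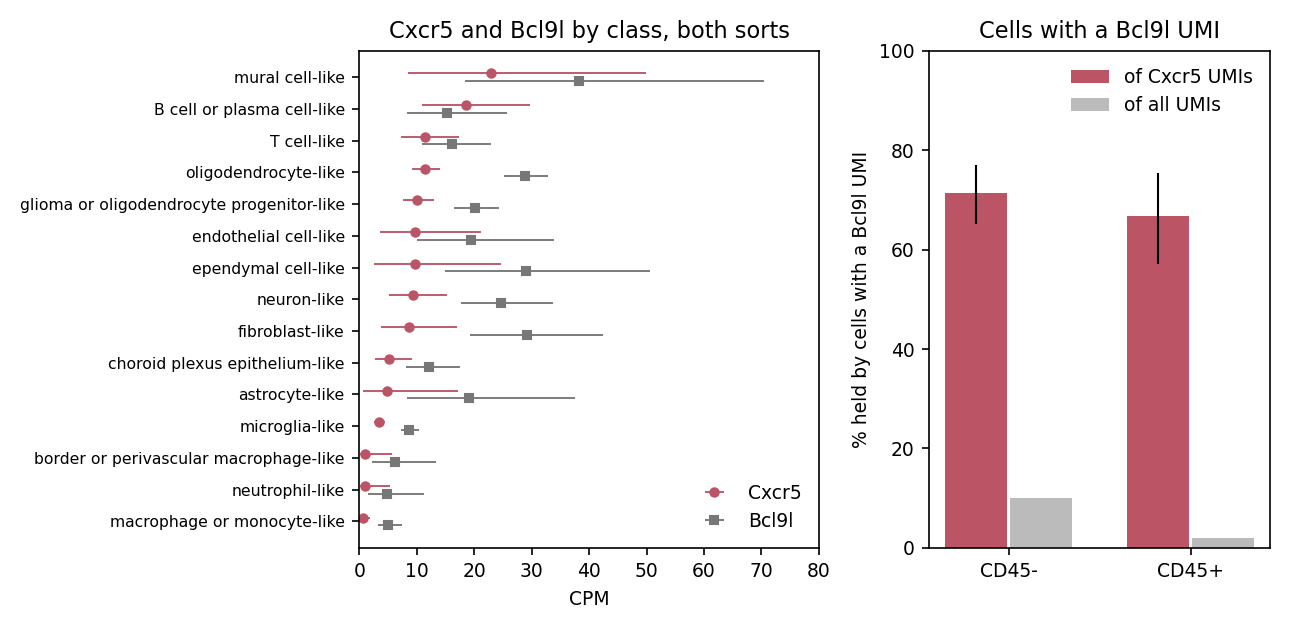
Left, Cxcr5 and its neighbour Bcl9l in each named class (CPM, both sorts and all stages) with 95% Poisson intervals. Right, the percentage of Cxcr5 UMIs, with exact 95% binomial intervals, and of all UMIs that lay in cells with a Bcl9l UMI, which is 71.4 against 9.96 in the CD45- and 66.7 against 1.90 in the CD45+ sort.

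Cxcl13 was then followed by class. In CD45+ microglia-like cells it was read at 217 CPM when early (1805 UMIs, 95% Poisson interval 207 to 227), 2268 when medium (4912 UMIs, 2205 to 2332) and 1618 when late (3760 UMIs, 1566 to 1670). These intervals cover counting error only. On the log2 scale the medium sample was 3.39 above the early one (3.31 to 3.46) and the late sample 2.90 above it (2.82 to 2.98), and late was 0.49 below medium (log2 difference -0.49). With 1 tumor sample per stage, stage and animal cannot be told apart. Markers of macrophages moved in the same cells, with a summed level of 302, 867 and 763 CPM and Lyz2 at 204, 674 and 478 from early to late, while P2ry12 was at 3447, 1957 and 2594. Their part in the Cxcl13 difference was not tested. Among genes with at least 10 UMIs, Cxcl13 had rank 65 of 16317 by its late over early ratio and rank 75 of 16245 by its medium over early ratio. Cxcl13 was chosen for its higher level in later microglia, so these ranks follow from that choice and are no evidence for the difference. At least 2-fold higher were 7.16% of genes in late and 7.21% in medium microglia-like cells, and at least 2-fold lower were 4.53% and 7.76%.

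Library values in microglia-like cells were 315, 213, 266 and 171 CPM for early, 2515, 2324, 1871 and 2317 for medium, and 4184, 6185, 2129 and 993 for late. No later library overlapped an early one. The late over early log2 ratio was 3.32 within run 2 and 2.21 within run 3, and medium over early was 3.36 and 3.43, runs that hold none of the small late libraries. The microglia-like cells that had entered the CD45- sort gave a medium over early log2 ratio of 2.40, with 87 and 244 cells.

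Macrophage or monocyte-like cells had a higher early level and a different course. Cxcl13 was read at 1824 CPM in early (141 cells, 1683 to 1974), 4174 in medium (1143 cells, 4096 to 4253) and 1257 in late cells (572 cells, 1205 to 1310). Medium was above early by 1.19 on the log2 scale (1.08 to 1.31), and the late over early value was -0.54 (-0.67 to -0.41). The early libraries of this class ranged from 529 to 3110 and the late ones from 736 to 3922, so early and late libraries overlapped. In this class 12.8% of genes were at least 2-fold higher and 13.6% lower in medium than in early cells, and 14.9% and 10.4% in late cells. No run had 100 such cells in the early sample, so no within-run value was calculated.

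The late value of this class rests on which cells it holds. Cluster 2, led by Cxcl9, Apoc1 and Spp1, had 1856, 4175 and 1696 CPM in early, medium and late cells. Cluster 22, led by Arg1, Retnla and Ear2, was nearly all late (194 of 198 cells of all stages) and had 273. When cells were classed singly by their markers, without clusters, the late over early value turned to 1.397.

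**Figure D3:**
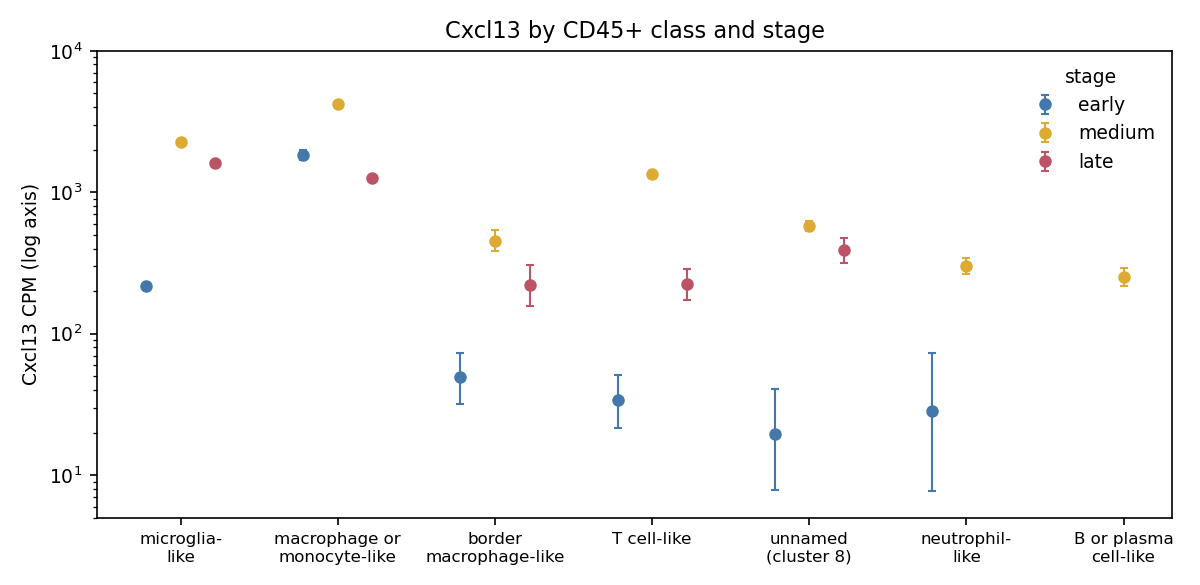
Cxcl13 in CD45+ classes (CPM, log axis) by stage, with 95% Poisson intervals for counting error, for classes with at least 50 cells in the stage. The level is 217, 2268 and 1618 in microglia-like cells and 1824, 4174 and 1257 in macrophage or monocyte-like cells, and the medium sample is the highest in every class that has all stages.

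The source of CD45+ Cxcl13 thus differed between the tumors. Microglia-like cells held 71.5% of its early UMIs (69.7 to 73.3), 26.8% of the medium (26.2 to 27.4) and 60.0% of the late ones (58.8 to 61.3). When cells were classed singly by their markers, these shares were 49.3%, 12.1% and 39.5%, so they depend on the classing by more than their counting error. Microglia-like cells were 79.2%, 26.9% and 51.6% of the CD45+ cells. Macrophage or monocyte-like cells held 24.5%, 59.6% and 35.5% of the UMIs and were 2.77%, 28.7% and 27.1% of the cells. Together these classes held 89.4% of all CD45+ Cxcl13 UMIs.

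Cxcl13 was concentrated in a minority of cells. Of the early microglia-like cells 5.88% had a UMI, of the medium 34.9% and of the late 22.3%. After each cell was thinned to 1000 UMIs the shares were 4.68% (3931 cells), 31.1% (1071 cells) and 19.5% (1033 cells), with 99, 1 and 56 cells too shallow to be used. Cells with at least 10 Cxcl13 UMIs were 1.27%, 14.1% and 8.63% of the class, and they held 70.5%, 83.6% and 87.2% of its Cxcl13 UMIs. The highest cell had 75, 199 and 265 UMIs. Among positive cells the median was 3 UMIs for early, 7 for medium and 6 for late, but after thinning it was 3, 4 and 3. The level over all positive cells was 3312 CPM in early, 5734 in medium and 5406 in late cells. The share of positive cells was thus higher in the later samples at matched depth, and the level in positive cells was higher over their sum but not in the thinned median of late cells. Of macrophage or monocyte-like cells 33.3%, 62.4% and 24.8% had a UMI.

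The stage difference ran through most microglia-like clusters. Cluster 1, led by Tnf and Gpr84, had a log2 ratio of 2.66 in medium and 3.34 in late over early cells. Clusters 3, 4 and 5, which keep the P2ry12 or P2ry13 programme of resting microglia among their leading genes, had 1.86, 2.35 and 3.01 in medium and 2.00, 1.90 and 2.43 in late cells. Cluster 21, led by genes of cell division such as Mki67, had 1.80 and 2.19 and was already at 869 CPM in the early sample. Cluster 11, led by Cst7 and by Cxcl13 itself, had the highest ratios, 3.96 and 3.93, at 290 CPM in early, 4532 in medium and 4460 in late cells. In its 51 late cells, however, 1 cell held 265 of the 518 Cxcl13 UMIs. Cluster 26, led by the interferon-induced genes Gbp2 and Ciita, was the exception, at 1488 in early and 1753 in medium cells (log2 ratio 0.23, -0.08 to 0.55). Cxcl13 and Cxcr5 were left out of the clustering. Early microglia-like cells were mostly in clusters 1 and 3 and late ones in clusters 4 and 1, whereas medium ones were spread, with 283 of 1072 in cluster 5, 214 in cluster 11 and 203 in cluster 1. With the clusters weighted as in the early sample, the class ratio was 2.55 in medium and 2.84 in late cells.

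**Figure D4:**
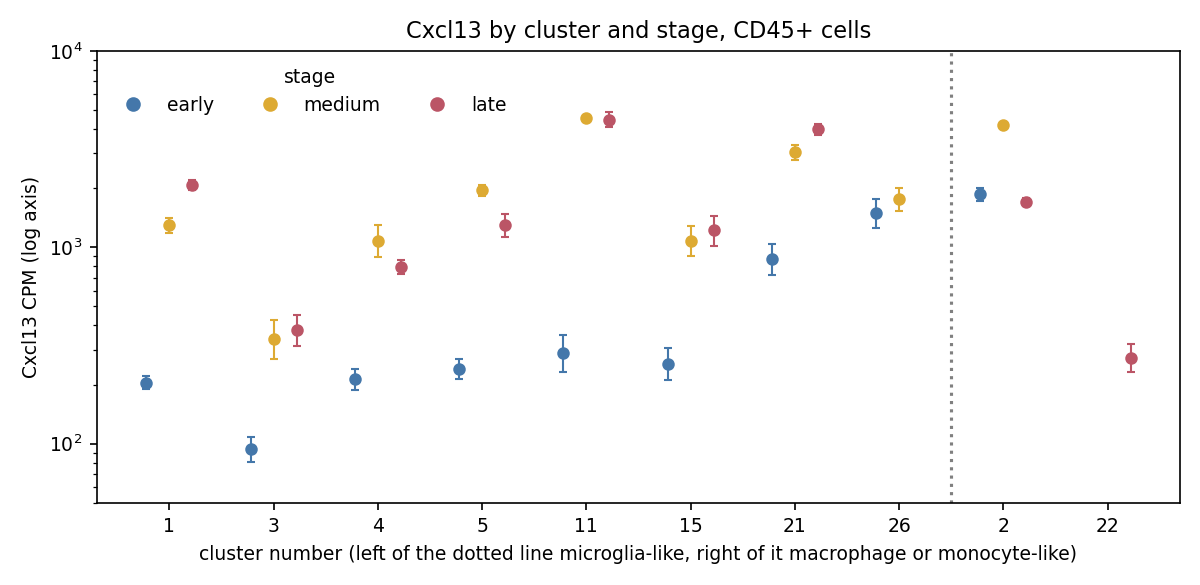
Cxcl13 (CPM, log axis) in each microglia-like and macrophage or monocyte-like cluster by stage, CD45+ cells, with 95% Poisson intervals for counting error and points for at least 20 cells. Medium and late points lie above the early point in clusters 1, 3, 4, 5, 11, 15 and 21, whereas cluster 26 has 1488 and 1753 in early and medium cells.

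Genes whose levels followed Cxcl13 from cell to cell were sought within each class, as Pearson's r of log(1 + UMIs per 10000) after the mean of each library was subtracted. All values were low and Cxcl13 was sparse, so they are a description over cells that share libraries and differ in depth. Over 6191 CD45+ microglia-like cells and 4809 genes the median r was 0.004 and the 99th percentile 0.125. The 10 genes with the highest r were Sdc3, AI506816, Cd52, Axl, Apobec3, Fth1, Lpl, Gm42031, Apoe and Rpl41, from 0.227 down to 0.175. The 3 lowest were Cst3 (-0.310), P2ry12 (-0.276) and Selplg (-0.204). Cxcl13 itself had r = 0.158 with log depth.

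In levels, P2ry12, the purinergic receptor of resting microglia, was at 2039 CPM in early microglia-like cells with a Cxcl13 UMI and at 3546 in those without. It was 911 against 2642 in medium and 1415 against 3098 in late cells. Cst3, a secreted protease inhibitor, was at 26896 against 33032, 13667 against 27162 and 12239 against 25281. Axl, a receptor for dying cells, was at 145 against 21.9, 315 against 87.8 and 144 against 55.9. Lpl, a lipase, was at 156 against 80.6, 451 against 99.3 and 371 against 138. Apoe, a lipid carrier, was at 4160 against 2402, 9204 against 3921 and 7644 against 5853. These genes were picked by their r over the same cells of all 3 tumors, so a shared direction follows in part from that choice. Each of them kept 1 direction in all 3 tumors.

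Apobec3 did not. It was at 25.7 against 26.9 CPM in early microglia-like cells, but at 1398 against 234 in medium and 70.4 against 31.3 in late ones. In the medium tumor, AI506816 was present in 58.8% of CD45- and 76.0% of CD45+ glioma or oligodendrocyte progenitor-like cells and in 98.3% of the CD45- cells of the unnamed cluster 23, but in 2.57% of CD45- oligodendrocyte-like cells. It was present in 20.2% of the CD45+ microglia-like cells, and likewise in 22.5% of B cell or plasma cell-like, 14.96% of border or perivascular macrophage-like, 12.9% of macrophage or monocyte-like and 12.8% of T cell-like CD45+ cells and in 15.4% of CD45- fibroblast-like cells. Among medium microglia-like cells, the 217 with an AI506816 UMI had 4584 CPM of Cxcl13 (4408 to 4766) and 70.0% had Cxcl13, and 178 of them were in cluster 11. The 855 without it had 1468 (1409 to 1528) and 26.0% had Cxcl13. Without the cells that hold AI506816, the medium over early log2 ratio was 2.81 and the late over early ratio 2.82. In the early and late tumors AI506816 was present in 2.96% and 5.75% of CD45- glioma or oligodendrocyte progenitor-like cells. It was present there in 1.94% and 2.75% of CD45+ microglia-like cells. Whether AI506816 marks RNA of the glioma-like cells in the microglia-like cells of the medium tumor was not tested.

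State lists were set beside these values. In microglia-like cells the homeostatic list had a median r of -0.161, with 0 of 8 genes above 0, from P2ry12 to Sall1 (-0.050). The disease-associated list had 0.135 over 8 measured genes, 7 of them above 0, from Trem2 (-0.031) to Axl (0.225). The MHC class II list had 0.130 over 4 genes, from H2-Ab1 (0.110) to Cd74 (0.138). The inflammatory list was near the median of all genes at 0.012 over 13 genes, from Tnf (-0.037) to Il1b (0.140), and the immediate-early list was at -0.058 over 9 genes, from Jun (-0.185) to Fosb (-0.019). Of the interferon-stimulated and cell cycle lists only 1 and 2 genes were measured in 5% of cells, with medians of 0.093 and 0.046.

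The macrophage or monocyte-like class had other genes at its extremes, over 1856 cells and 5066 genes. The 10 highest were Sparc (0.289), Cd81, Cst7, Cd9, Cd34, Ly86, Gfm2, C1qa, Itgax and Cpd (0.173), and the 3 lowest were Lyz2 (-0.290), Lyz1 (-0.280) and Pmepa1 (-0.185). Lyz1 and Lyz2 are near-identical lysozyme genes and may share reads. Sparc, an extracellular matrix protein that resting microglia also express, was at 1401 CPM in early cells with Cxcl13 against 941 without, at 902 against 601 in medium and at 2441 against 771 in late cells. Lyz2, a lysozyme gene of macrophages, was at 2356 against 4603, 3659 against 5448 and 3357 against 5872. All 8 homeostatic genes had r above 0 here (median 0.074), from P2ry13 (0.005) to Siglech (0.158).

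The other lists lay on both sides of 0 in this class. The disease-associated list had a median r of 0.084 over 11 genes, from Apoe (-0.162) to Cst7 (0.226), and the inflammatory list 0.073 over 14 genes, from Cxcl2 (-0.076) to Gpr84 (0.156). MHC class II genes had -0.025 over 5 genes, from H2-Aa (-0.044) to Ciita (-0.021), and immediate-early genes -0.025 over 9 genes, from Dusp1 (-0.060) to Egr1 (0.053). These medians differed in sign between the tumors, at -0.108, 0.040 and -0.153 for MHC class II and at -0.105, -0.049 and 0.061 for immediate-early genes from early to late. Interferon-stimulated and cell cycle genes had 0.005 and 0.013 over 5 genes each, near the median of 0.007 of all genes. Of the 50 genes with the highest r in each class, 8 were shared, which is 16% of each list. Of the microglia list 48 genes were measured in the other class, where 4253 genes were measured in both.

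**Figure D5:**
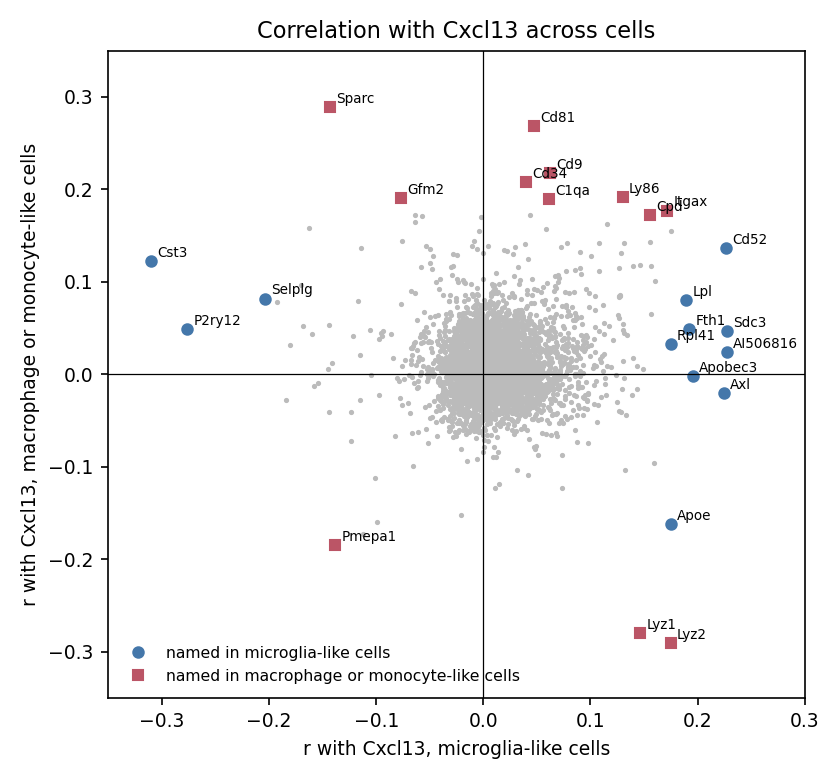
Pearson's r with Cxcl13 across CD45+ microglia-like cells (horizontal axis) and across macrophage or monocyte-like cells (vertical axis) for 4253 genes measured in at least 5% of both. Named genes are labelled. P2ry12 and Cst3 lie at the left (-0.276 and -0.310), Lyz2 at the bottom (-0.290) and Sparc at the top (0.289).

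Cxcl13 UMIs in lymphoid and granulocytic classes were set beside the myeloid complement genes C1qa, C1qb and C1qc. T cell-like cells had Cxcl13 at 34.01 CPM in the early tumor, 1342 in the medium and 225 in the late one, with a UMI in 25.4% of the 421 medium cells. Their summed C1q level was 2774, 5128 and 3223, against 11421 to 14720 in microglia-like cells. The 107 medium T cell-like cells with Cxcl13 had a C1q level of 11406, and the 314 without it had 2577. The 41 with at least 10 Cxcl13 UMIs reached 14271, close to the level of macrophage or monocyte-like cells (14924), with 733 CPM of the T cell receptor genes Trac and Trbc2 against 1475 in cells without Cxcl13. In the 206 medium T cell-like cells without any C1q UMI, Cxcl13 was at 51.2.

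The same held for other classes of the medium tumor. Neutrophil-like cells had Cxcl13 at 301 CPM and at 15.3 in cells without C1q, and B cell or plasma cell-like cells had 252 and 12.4. The ratio of Cxcl13 to C1q UMIs was 0.262 in T cell-like, 0.260 in neutrophil-like and 0.218 in B cell or plasma cell-like cells, against 0.280 in macrophage or monocyte-like and 0.158 in microglia-like cells. Border or perivascular macrophage-like cells, which lie along vessels and in the meninges, had 49.5, 455 and 222 CPM of Cxcl13 from early to late. The part of droplets with more than 1 cell in these levels was not tested.

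Finally, 37 genes that act with CXCL13 in building lymphoid tissue were followed. Between the sorts, 30 could be tested, with 24 higher and 3 lower in CD45+ cells, with a median log2 difference of 3.50 against -0.04 over all genes. The list holds many leukocyte genes, and all genes passed at the shares given above. All 9 lymphotoxin and TNF genes were higher. Ltb, a subunit of the lymphotoxin that acts upstream of Cxcl13 in lymphoid organs, was at 25.7, 53.1 and 17.7 CPM against 0.247, 0.152 and 0 (log2 difference 8.13, adjusted p = 1.17e-04, edgeR), a fitted difference that depends on the prior count since late CD45- cells had none. Its receptor Ltbr differed less (1.33), at 45.3, 43.0 and 61.5 against 13.5, 29.0 and 40.6.

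Among the homing cues, Ccr7, Cxcr4, Gpr183 and Ch25h were higher, and Cxcl12, a chemokine of stromal and endothelial cells, was lower at 6.11, 6.37 and 10.0 against 97.9, 175 and 55.0 (log2 difference -3.41). Ackr1, a chemokine-binding receptor of endothelium, was also lower (-2.59), as was Mfge8, a gene of follicular dendritic cells that brain cells express too (-1.88). Tnfsf13b, the B cell survival factor BAFF, was at 14.6, 30.0 and 16.2 against 1.36, 3.96 and 0.567 (log2 difference 3.95). Tnfrsf13b, the receptor TACI that binds it, was at 80.03, 51.7 and 61.7 against 7.53, 4.27 and 1.04 (4.49). Sh2d1a, Tnfrsf13c and Tnfsf13 did not pass. The other 7 genes were too low to be tested.

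The list was next compared between stages, as a description. In microglia-like cells 24 of the 37 genes had enough UMIs. In late over early cells 3 of them were at least 2-fold higher (Cxcr4, Ch25h and Cd40) and 1 lower (Map3k14), against 7.16% and 4.53% of all genes, with a median log2 ratio of 0.14 against 0.12 over all genes. In medium over early cells 5 were higher (Ltb, Cxcr4, Ch25h, Icos and Cd40) and 1 lower (Tnfsf13), against 7.21% and 7.76% of all genes, with a median of -0.08 against -0.06. Cxcr4, the receptor of CXCL12, was at 5.41, 23.1 and 21.9 CPM in early, medium and late cells. Ch25h, which makes an oxysterol that guides B cells, was at 1.08, 6.001 and 7.75, from 9, 13 and 18 UMIs.

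State genes differed between the stages as well, read against the same shares of all genes (7.16% higher in late and 7.21% in medium cells). Of the 12 disease-associated genes, 8 were at least 2-fold higher in late and in medium over early microglia-like cells (medians 1.30 and 1.69), and of the 9 cell cycle genes 7 and 8 were (2.35 and 2.28). The MHC class II genes, 5 in all, were higher in medium cells (median 2.80), whereas in late cells none was higher and 2 were at least 2-fold lower (median -0.90). Of the 9 interferon-stimulated genes 7 were higher in medium cells (1.98), whereas in late cells 0 were higher and 2 at least 2-fold lower (-0.09). Of all genes, 4.53% were at least 2-fold lower in late cells. Thus Cxcl13 was high in both later samples, in the medium one beside higher MHC class II and interferon-stimulated genes and in the late one without them.

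In macrophage or monocyte-like cells 20 genes of the list entered in late and 21 in medium over early cells. In each case 2 were at least 2-fold higher and 5 lower, against 14.9% and 10.4% of all genes in late and 12.8% and 13.6% in medium cells, with medians of -0.56 against 0.09 and of -0.51 against -0.07. Tnf was lower in both, at 489 CPM in early, 153 in medium and 185 in late cells. Ch25h was at 100 in early and 23.8 in late cells (log2 ratio -2.08). Over 43 sums by class and tumor of at least 50 cells, the genes whose log2(CPM + 1) was most like Cxcl13 were Plxna4os1 (r = 0.872), Ly9, Arpc4, Zc3h12a and H2-Ob (0.860), among 19414 genes. For Cxcr5, the most similar of 21418 genes was Bcl9l (0.767), followed by Smc3, Atp9a, Dctn6 and Pop5 (0.712). These sums share tumors and differ in depth, and the values are descriptions.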

How the data were processed

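Single-cell RNA libraries of 3 tumor samples, each sorted into CD45+ and CD45- cells, were analysed. The authors mapped reads with RapMap in bcbio-nextgen to the GRCm38 transcriptome (Ensembl v.94) and called cells against empty droplets. The authors deposited a table of UMI counts, genes by cells and not normalized, and a library annotation (unit: other) that gives run, sort and stage. The study's methods name removal of ambient RNA and doublets, but not whether this came before the deposited counts. Of 50262 identifiers, 50150 were paired with a symbol, and positions came from GENCODE M21.

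Of 20811 cells, those with at least 500 UMIs, 500 genes and at most 20% mitochondrial UMIs were kept (17894). Scrublet scored libraries of at least 100 cells and called 113 of 17786 (0.635%, against 6% expected), which were removed, leaving 17781. Leiden clustering (scanpy 1.11.5, leidenalg 0.10.2, 2000 variable genes, 40 components, 20 neighbours, resolution 1, seed 1) gave 31 clusters. A cluster was named when at least 3 markers of a class were 2-fold higher and present in 10% of its cells, with a mean log2 fold of at least 0.2, a limit set after seeing the data. This left 5 clusters unnamed. B cell and plasma cell names were merged.

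Counts summed per tumor sample and sort were tested with edgeR 4.0.16 (quasi-likelihood, TMM, filterByExpr, R 4.3.3), with DESeq2 1.42.0 as an alternative, and Benjamini-Hochberg adjustment at 0.05. Each tumor sample counted as 1 replicate, and the replicate numbers of the labels, which are sequencing pools that each hold all stages, were not used as replicates. Both sorts came from the same tumor, and deviations of paired sums correlated at 0.383, 0.277 and 0.320, so the pairing was kept as a block. The fit had 2 residual degrees of freedom. On simulated data for this comparison, 197 of 200 changed genes were recovered. The simulation held large changes and no differences between tumors. It therefore does not show how well smaller differences, or genes that vary between tumors, are found. Ratios between stages used shares of all UMIs of a class with a prior of 0.5 counts. Intervals are exact at 95% (Poisson or Clopper-Pearson) and cover counting error only. CPM means UMIs per 1000000 UMIs.

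The named genes were the 10 highest and 3 lowest by r with Cxcl13 in each class, among genes in at least 5% of its cells, the 5 most similar over class and tumor sums (mean of at least 1 CPM, or 0.5 for Cxcr5), the 37 genes of the lymphoid lists, and the extremes of 7 state lists. Bcl9l, AI506816, the C1q and T cell receptor genes and the subsets of T cell-like cells were picked for closer description after their values were seen. The members and lists were chosen with earlier results of these data known. Some items are not reported here.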

Additional observations from a re-analysis of the deposited data

Results flagged for a closer look

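Of the groups of 4 libraries that were examined, 1 was flagged. Among the early CD45+ libraries, the lowest, of run 3, had 181 CPM of Cxcl13, and its gap to the others (251 to 265) exceeded Dixon's 95% limit. Chance flags about 1 in 20 such groups.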

How the results depend on the processing

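Of 125 alternative values, 113 were labelled as the same as the reported value, 10 as moved and 2 as changing a call. The sign was kept by 123, among them counts of genes and shares of UMIs, which cannot be negative. The Cxcl13 difference between sorts lost its call when every gene with at least 1 count was tested (5.02, adjusted p = 0.153, against 9.71e-05 to 0.0475 under the other alternatives), and it ranged from 3.84 to 6.24 when 1 tumor was left out. With no replicate block, so without the pairing, it was 4.70 (adjusted p = 0.0228) and the Cxcr5 difference -0.67, and no call changed. The Cxcr5 difference was called without TMM factors (-1.03) and ranged from -0.80 to -0.53 with 1 tumor left out. Of the lymphoid genes, 23 to 25 were higher and 3 lower throughout, leaving out tumors included.

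The Cxcl13 ratio of late over early microglia-like cells ranged from 2.49 to 3.43, and that of medium over early from 3.26 to 3.51, with 1 library left out. The latter was 2.40 in the CD45- sort, 2.55 with the early cluster mix and 2.81 without cells that hold AI506816, the last 2 settings chosen after seeing the data. In macrophage or monocyte-like cells the ranges were -0.72 to -0.01 (late) and 1.01 to 1.72 (medium), and classing single cells by markers turned the late value to 1.397, or 1.37 with every deposited cell. That classing also lowered the microglia-like share of Cxcl13 UMIs to 49.3%, 12.1% and 39.5% in the early, medium and late samples. The median r of the 10 named genes was 0.194 in microglia-like cells and 0.083 within the early, 0.311 within the medium and 0.174 within the late sample, and 0.1996 in macrophage or monocyte-like cells and 0.150 after thinning to 1000 UMIs. The causes were not tested. Each stage had 1 tumor sample, and Cxcr5 had 345 UMIs in all, so depth limits what can be said of it.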
